A study of Arabidopsis thaliana with 24 samples.

Results

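DFR (AT5G42800) and UF3GT (AT5G54060), which encode enzymes of anthocyanin synthesis, were followed across shoots and roots of Arabidopsis thaliana treated with DNA-damaging drugs. Both were picked by name through the array's annotation, and each was measured by a single probe set, 249215_at for DFR and 248185_at for UF3GT. They are 2 of the 13356 genes to which the annotation gave a probe set of their own, among the 22746 probe sets fitted. By their locus identifiers both genes lie on chromosome 5. RNA came from wild-type Col-0 plants on day 16, grown under 16 h of light a day on Murashige and Skoog medium, and was measured on Affymetrix ATH1 arrays. All 12 groups, each of 2 arrays, had received the same pair of drugs, bleomycin at 1.5 µg/ml, which breaks DNA strands, and mitomycin at 22 µg/ml, which crosslinks them. Shoots and roots were taken 0.5, 1, 3, 6, 12 and 24 h after the drugs were stirred into the medium below lifted rafts. Untreated plants were not analysed here, so each time was set against 0.5 h in the same organ, and the comparisons within an organ share those 2 arrays.

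Treatment started 3 h after lights on. The 12 h samples therefore fell 15 h after lights on, late in the light period, whereas those of 0.5 h and 24 h fell 3.5 and 3 h after lights on. Length of treatment and hour of day cannot be told apart from 1 to 12 h. Nothing in the labels ties the 2 arrays of a group to separate cultures, and p-values here rest on the spread between such arrays, which may be technical.

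Anthocyanins are red and purple flavonoid pigments that plants store in the vacuole, in leaves often under strong light, cold, sugar excess or nutrient shortage. Early enzymes shared with flavonols make dihydroflavonols. DFR, dihydroflavonol 4-reductase, reduces these and so opens the branch to anthocyanins and to the tannins of the seed coat. UF3GT is annotated as a UDP-glucose:flavonoid 3-O-glucosyltransferase. Under its other name, UGT79B1, it is known as the enzyme that adds xylose to the glucose of an anthocyanin, a late decoration of the pigment.

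Values are MAS5 signals on a linear scale. Changes are differences of log2(signal + 16) with standard errors from limma, and an adjusted p below 0.05, over all probe sets of a comparison, was taken as passing. On this scale the change of a dim gene is understated. Both genes were dim, with 44.9% of probe sets dimmer than DFR and 41.6% dimmer than UF3GT on average, and detection calls were not used here. The median signal of an array was 36.0 to 39.9 for shoots, against 45.2 to 47.8 for roots. The organ labels were borne out by all 6 markers. The summed signal of LHCB4.1, LHCB4.2 and RCA, which serve leaf photosynthesis, was 9416 to 19724 in shoots and 235 to 481 in roots, and that of the root genes PYK10, EXPA7 and EXPA18 was 399 to 812 in shoots and 3014 to 3797 in roots. Among shoot arrays, replicate 1 at 12 h and replicate 2 at 24 h lay nearest to the root arrays, with a mean r of 0.714 and 0.711 across probe sets, against 0.678 to 0.692 for the other shoot arrays.

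In shoots DFR stayed low for the first 6 h and was high at 12 and 24 h. Its signals on replicates 1 and 2 were 37.5 and 38.4 at 0.5 h, 29.2 and 36.3 at 1 h, 23.0 and 34.3 at 3 h, and 20.3 and 29.96 at 6 h. At 12 h they were 79.3 and 118, and at 24 h 59.8 and 160. All 4 later arrays lay above all 8 earlier ones, while the arrays of neighbouring early times overlapped, except that both at 0.5 h lay above both at 1 h. DFR rose at 12 h, by 1.07 ± 0.26 or 2.10-fold (adjusted p = 0.00531, n = 2 arrays a group, limma), and at 24 h, by 1.10 ± 0.26. The step from 6 to 12 h was the largest between neighbouring times, at 1.47 ± 0.26 (adjusted p = 0.00106). At 1, 3 and 6 h its changes were -0.15, -0.28 and -0.40, none past the threshold, which 8.76%, 12.3% and 20.8% of probe sets passed at those times. In bulk tissue, fewer cells of a type and less RNA per cell cannot be told apart.

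In shoots UF3GT was likewise low to 6 h and high at 12 and 24 h. Its replicates gave 26.0 and 18.0 at 0.5 h, 19.5 and 26.8 at 1 h, 16.9 and 18.9 at 3 h, and 21.8 and 24.6 at 6 h. They gave 73.2 and 71.7 at 12 h and 34.9 and 84.6 at 24 h. Again the 4 later arrays were above the 8 earlier ones, and, in the order of their means, neighbouring early times overlapped. UF3GT rose at 12 h by 1.23 ± 0.21 or 2.34-fold (adjusted p = 0.000255, limma) and at 24 h by 0.92 ± 0.21, with a step from 6 to 12 h of 1.18 ± 0.21 (adjusted p = 0.00106). Its changes at 1, 3 and 6 h were 0.05, -0.16 and 0.05 and did not pass. From 12 to 24 h neither gene passed a test of change, with 0.03 (95% interval -0.53 to 0.59) for DFR and -0.31 (-0.75 to 0.14) for UF3GT. Without replicate 2 at 24 h these changes were -0.58 and -0.80, and without replicate 1 at 24 h they were 0.64 and 0.19.

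For both genes the change over the whole shoot time course passed (limma F test, adjusted p = 0.0002 for DFR and 0.000106 for UF3GT), as it did for 40.4% of all probe sets. Both genes were among the 14% of probe sets called higher at 12 h, the 8.85% called higher at 24 h and the 6.5% called higher at 12 h than at 6 h. Both arrays at 12 h lay above all 8 arrays of 0.5 to 6 h for 9.2% of probe sets, and both at 24 h for 7.03%, DFR and UF3GT being among them at either time. At 12 h the summed signal of the 3 shoot markers was also low, 9416 and 11657 against 14375 to 19724 at 0.5 to 6 h and 12840 to 16080 at 24 h. Of these markers LHCB4.2 fell by 1.73 on the log2 scale from 6 to 12 h, while RCA stood at -0.06. Against 0.5 h all 3 were lower at 12 h. The mean signals at 0.5, 6 and 12 h were 6449, 6376 and 4556 for LHCB4.1. They were 6053, 5216 and 1571 for LHCB4.2, and 6198, 4605 and 4410 for RCA. The summed root markers of shoots stood at 588 and 796 at 12 h and at 464 and 486 at 24 h, inside the 399 to 812 of the earlier arrays. The part of these marker levels in the result was not tested.

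**Figure D1:**
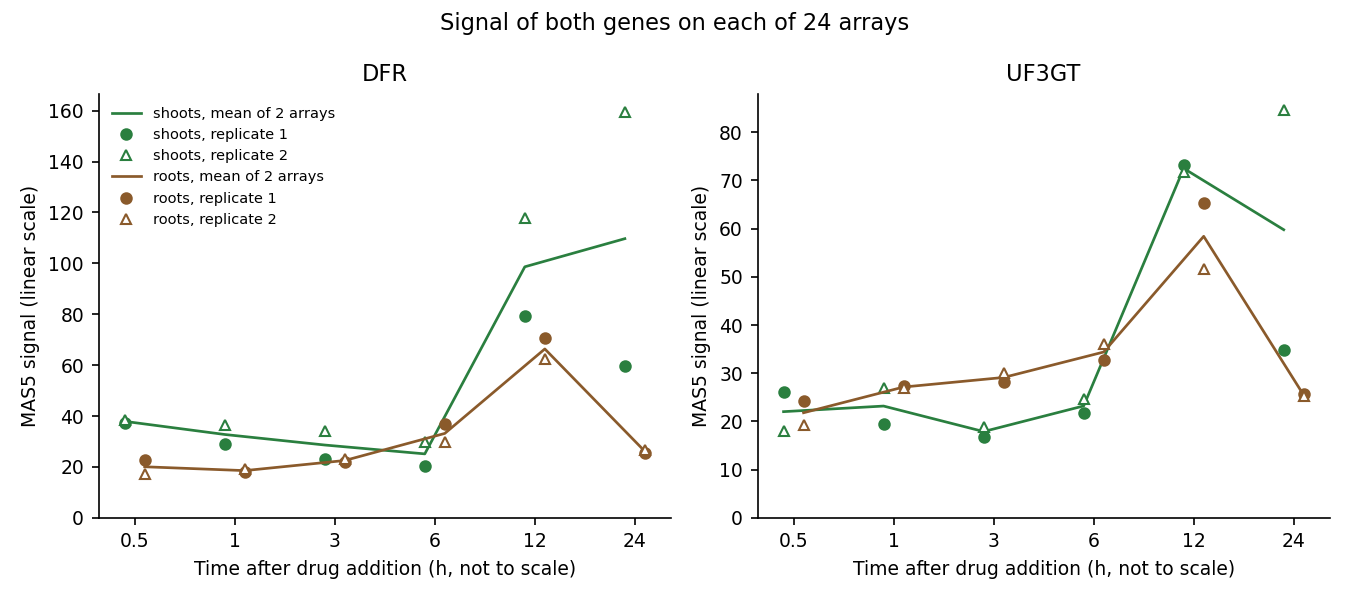
Linear MAS5 signal of DFR (left) and UF3GT (right) on each of 24 arrays against time after drug addition, with shoots in green, roots in brown, replicate 1 as circles, replicate 2 as open triangles and lines through the mean of 2 arrays. Both genes stand highest at 12 h in roots and at 12 and 24 h in shoots, where the arrays of 24 h lie far apart, 59.8 and 160 for DFR and 34.9 and 84.6 for UF3GT.

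In roots the 2 genes formed a peak at 12 h and were back near their first level at 24 h. DFR gave 22.9 and 17.2 at 0.5 h, 18.0 and 19.1 at 1 h, 22.0 and 23.1 at 3 h, and 36.7 and 29.6 at 6 h. It gave 70.5 and 62.2 at 12 h and 25.5 and 26.8 at 24 h. Both arrays at 12 h were above all other root arrays, and both at 6 h were above all the remaining ones. DFR rose at 12 h by 1.19 ± 0.26 or 2.29-fold (adjusted p = 0.00715, limma), and at 24 h stood 0.23 ± 0.26 from 0.5 h, with a 95% interval of -0.33 to 0.79.

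UF3GT gave 24.3 and 19.3 in roots at 0.5 h, 27.4 and 26.9 at 1 h, 28.2 and 30.03 at 3 h, and 32.7 and 36.1 at 6 h. It gave 65.3 and 51.5 at 12 h and 25.6 and 25.3 at 24 h. Its means climbed at each time to 12 h without overlap between neighbouring times, although its changes from 0.5 h at 1, 3 and 6 h, 0.19, 0.26 and 0.42, did not pass, nor did those of DFR (-0.06, 0.10 and 0.45). At these times 0.47%, 5.36% and 5.84% of probe sets passed. UF3GT rose at 12 h by 0.97 ± 0.21 or 1.96-fold (adjusted p = 0.00623, limma). At 24 h it stood 0.14 ± 0.21 from 0.5 h, with a 95% interval of -0.31 to 0.58. The whole root time course passed for both (adjusted p = 0.018 for DFR and 0.031 for UF3GT), among 16.3% of probe sets. That test was lost for DFR without either array at 12 h and for UF3GT without any of the arrays of 0.5, 1, 12 or 24 h, taken singly (adjusted p = 0.0501 to 0.253). At 12 h both belonged to the 5.1% of probe sets called higher, and at 24 h neither belonged to the 13.1% called either way.

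The level at 12 h above all other root arrays was a pattern that 2.66% of probe sets had. The decline from 12 to 24 h, at -0.97 ± 0.26 for DFR and -0.84 ± 0.21 for UF3GT, missed the threshold (adjusted p = 0.0875 and 0.0574), in a comparison in which only 0.633% of probe sets were called lower. It passed when roots were fitted without the shoot arrays, with an adjusted p of 0.0025 for DFR and 0.00575 for UF3GT, and over all alternatives the adjusted p ran from 0.00174 to 0.419 and from 0.00172 to 0.377. It also passed with either shoot array of 24 h left out. The steps from 6 to 12 h in roots, 0.75 ± 0.26 and 0.56 ± 0.21, did not pass (adjusted p = 0.315 and 0.358, with 0.431% of probe sets called either way), although that of DFR did with roots fitted alone (adjusted p = 0.0301). On the root arrays of 12 h the summed shoot markers were at 235 and 237, below the 292 to 481 of earlier root arrays. These markers were also low at 12 h in shoots themselves, and their part in the root result was not tested.

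Ordered by mean over all 12 groups, DFR was highest in shoots at 24 h (110 ± 70.6, SD, n = 2), then in shoots at 12 h (98.6 ± 27.4) and roots at 12 h (66.4 ± 5.84). The first and the second overlapped, and the third lay below the second without overlap. Below these came shoots at 0.5 h (37.9 ± 0.65). The remaining groups ran from roots at 6 h (33.2 ± 5.04) down to roots at 1 h (18.6 ± 0.76), each overlapping its neighbour in the order. For UF3GT shoots at 12 h led (72.5 ± 1.07), overlapping shoots at 24 h (59.8 ± 35.2), which in turn overlapped roots at 12 h (58.4 ± 9.74). Roots at 6 h (34.4 ± 2.36) were next, and the lowest group was shoots at 3 h (17.9 ± 1.47).

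Over all times DFR was higher in shoots than in roots, by 0.49 ± 0.11 or 1.40-fold (12 arrays each, adjusted p = 0.00051, limma), in a comparison in which 76.8% of probe sets passed and the median difference of all probe sets was -0.11. For UF3GT the organs were at 0.02 ± 0.09 (95% interval -0.16 to 0.20, adjusted p = 0.832). That result moved with the scaling. Quantile normalization over all arrays and centring on the median shifted the median difference of all probe sets to -0.01 and 0.09, and UF3GT was then higher in shoots by 0.22 and 0.23, past the threshold.

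The organs were compared in the change itself. At 12 h the difference, roots minus shoots, was 0.13 ± 0.37 for DFR (95% interval -0.66 to 0.92) and -0.25 ± 0.30 for UF3GT (-0.89 to 0.38). Neither passed, where 15.6% of probe sets did, and both intervals leave room for a difference in either direction. At 24 h the root change was smaller, by -0.87 ± 0.37 for DFR and -0.78 ± 0.30 for UF3GT, but neither difference passed (adjusted p = 0.163 and 0.112, limma; 9.39% of probe sets passed either way). Thus the rise at 24 h passed in shoots and not in roots, while the difference between the organs was not established. It passed for both genes only with replicate 1 of shoots at 24 h left out (-1.48 and -1.28), and without replicate 2 it stood at -0.26 and -0.29. At 6 h, where DFR was below its first level in shoots and above it in roots, the difference was 0.85 ± 0.37 (adjusted p = 0.159, with 12% of probe sets past the threshold).

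Array by array, the 2 genes agreed on which arrays were high. In shoots the same 4 arrays, of 12 and 24 h, were the highest for both, replicate 2 at 24 h leading for either gene and replicate 1 at 24 h coming last of the 4. In roots the same pair of arrays at 12 h led, followed for both genes by the pair at 6 h. Because the arrays fall into a low and a high set, no correlation over all of them was tested. Correlations were computed within the low sets, which were chosen after the data were seen. Their permutations shuffled single arrays, although each time gave 2 arrays, so differences between times enter r, rho and their p-values. Over the 8 shoot arrays of 0.5 to 6 h Pearson's r was 0.31 (exact permutation p = 0.446) and Spearman's rho 0.21 (exact permutation p = 0.619). Over the 10 root arrays other than 12 h r was 0.66 (permutation p = 0.0378) and rho 0.53 (permutation p = 0.124), and r without the 2 arrays farthest from the DFR median was 0.39 (n = 8, exact permutation p = 0.339), so that this relation rests on those arrays.

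Differences between the replicates of a group, which leave the time course out, gave r = 0.84 over 12 groups (2-sided permutation p = 0.00723) and rho = 0.53 (permutation p = 0.0796). Adjusted over the 6 correlations computed, these p-values became 0.0434 and 0.159, and the root values 0.113 and 0.186. Without the 2 groups farthest from the DFR median r was 0.55 (n = 10, permutation p = 0.102), so this relation too rests on those groups. The sign of each difference follows the replicate number, so r and rho can change if the numbers within a group are swapped. DFR was higher on replicate 2 in all 6 shoot groups. The higher array for DFR was also the higher one for UF3GT in 7 of 12 groups, 4 of 6 in shoots and 3 of 6 in roots. Shoots at 24 h held the widest gap for both genes, with replicate 2 above replicate 1 by 1.21 for DFR and 0.98 for UF3GT on the log2 scale. Only 0.51% and 0.936% of all probe sets had a gap in that direction as large or larger on those arrays, and 48.3% were higher on replicate 2.

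**Figure D2:**
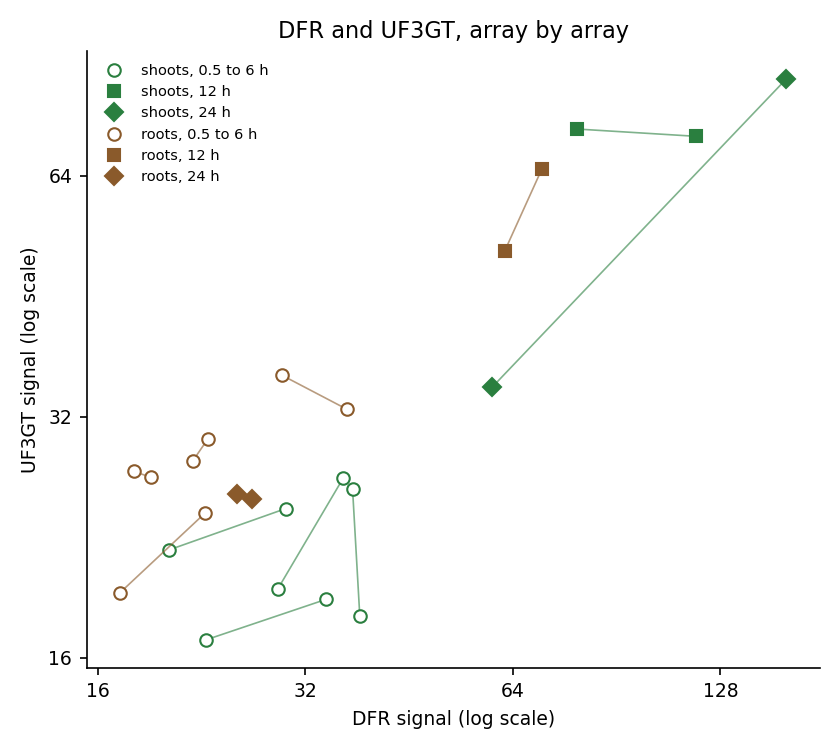
Signal of UF3GT against that of DFR on each array, on log axes, with lines joining the 2 arrays of a group, shoots in green and roots in brown. Arrays of 12 h (squares) and shoot arrays of 24 h (filled diamonds) stand apart from the rest, and the line between the shoot arrays of 24 h is the longest, from 59.8 to 160 for DFR.

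Dependence on single arrays differed between 12 and 24 h. In shoots at 12 h UF3GT passed whichever array was left out, with changes from 1.07 to 1.38, and DFR ran from 0.82 to 1.31 and lost its call only without replicate 2 at 12 h (adjusted p = 0.0765). At 24 h in shoots, the DFR change was 1.70 without replicate 1 and 0.49 without replicate 2, and that of UF3GT 1.41 and 0.43, in each case no longer past the threshold without replicate 2. UF3GT at 24 h also lost its call without replicate 2 at 0.5 h (0.77, adjusted p = 0.0546). In roots at 12 h the sizes hardly moved, from 1.08 to 1.31 for DFR and from 0.84 to 1.11 for UF3GT, yet both lost their calls without replicate 2 at 0.5 h (adjusted p = 0.0793 and 0.0736) or replicate 1 at 12 h (0.0638 and 0.0791).

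**Figure D3:**
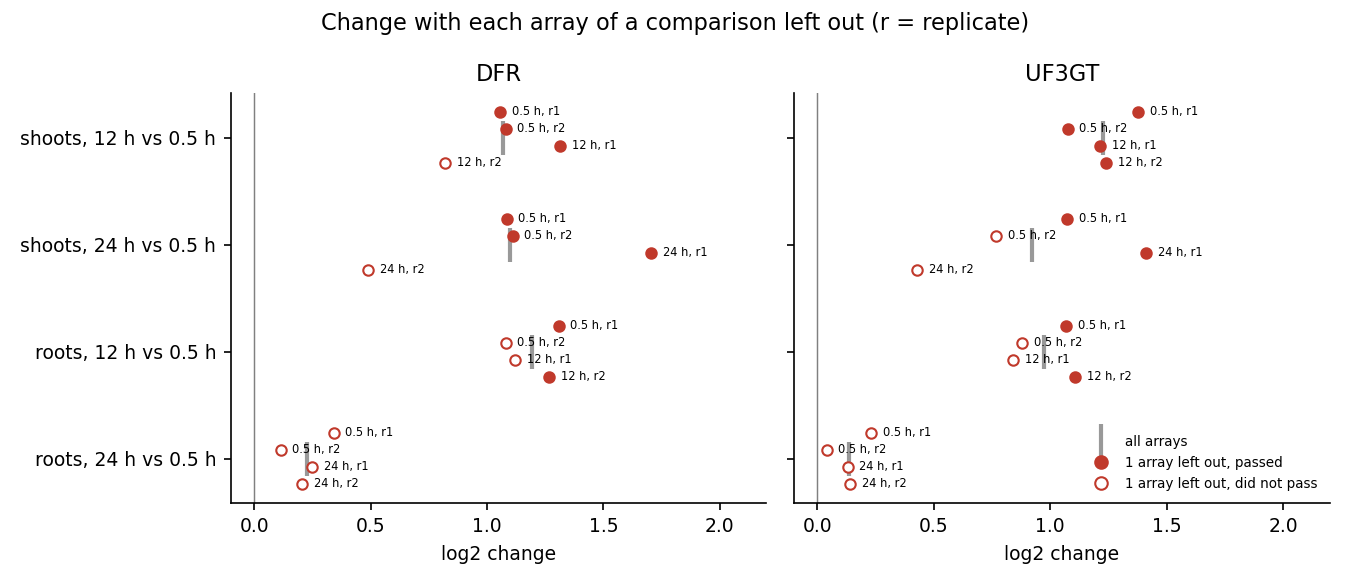
Changes of log2(signal + 16) from 0.5 h with all arrays (grey bars) and with each of the 4 arrays of the comparison left out (dots, labelled with the time and replicate removed, filled where the adjusted p stayed below 0.05). The values at 12 h stay close together, whereas those of shoots at 24 h spread from 0.49 to 1.70 for DFR and from 0.43 to 1.41 for UF3GT.

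The wider pathway was described through a list of 53 genes of phenylpropanoid, flavonoid and anthocyanin synthesis and its regulators. The annotation used here gave 9 of them a probe set of their own. These were CHIL, UGT78D1, UGT78D2 and AT1G06000 of the 9 early and flavonol genes listed, and DFR, UF3GT, AT4G14090, AT5MAT and BAN of the 14 late ones. None of the 8 phenylpropanoid genes and none of the 22 regulators on the list was matched to a probe set of its own. No value is given for them. As 8730 probe sets had no entry in that annotation, genes without a match may still be on the array. The loci AT1G03940 and AT1G03495 shared 1 probe set and are given apart.

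In shoots 7 of the 9 rose at 12 h, where 14% of all probe sets were called higher, and none fell, with a median of 1.07 against -0.04 over all probe sets. For the 7 genes other than DFR and UF3GT the median was 0.62, and 5 of them rose. UGT78D1, which glycosylates flavonols, rose by 1.44 ± 0.19 (adjusted p = 1.9e-05, limma), from signals of 101 and 115 at 0.5 h to 307 and 332. AT4G14090 went from 7.33 and 15.4 to 49.2 and 67.9, a rise of 1.45 ± 0.34, and AT1G06000 rose by 1.27 ± 0.23. Smaller rises were those of AT5MAT, an anthocyanin malonyltransferase, at 0.62 ± 0.18, and UGT78D2, which glucosylates flavonols and anthocyanidins at their 3-O position, at 0.44 ± 0.13. Both of these lost their calls in 2 of the fits with 1 array left out, AT5MAT also at a pseudocount of 1 and UGT78D2 also with shoots fitted alone. CHIL, a chalcone isomerase-like protein that promotes flux into the pathway, stood at 0.31 ± 0.16 and did not pass. BAN, the reductase that leads to seed coat tannins, was near 0 throughout, with signals from 0.65 to 1.97 in shoots and from 0.509 to 4.86 in roots.

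Against 6 h instead of 0.5 h, 8 of the 9 were higher in shoots at 12 h, all but BAN, where 6.5% of all probe sets were called higher. The median was 1.28 over the 9 genes, against -0.0031 over all probe sets. CHIL (-0.97 ± 0.16) and UGT78D2 (-0.79 ± 0.13) were lower at 6 h than at 0.5 h, where 20.8% of probe sets passed either way. Their steps from 6 h thus start from a low level. UGT78D2 was also higher at 1 h than at 0.5 h (0.67 ± 0.13), where 8.76% of probe sets passed either way. Its mean signal was 221 at 1 h and 185 at 12 h. At 24 h 7 of 9 were above 0.5 h in shoots, where 8.85% of all probe sets were called higher, and none below, with a median of 0.92 against -0.05 over all probe sets. CHIL (0.87 ± 0.16) and UGT78D2 (0.91 ± 0.13) were among them, and rose further between 12 and 24 h, by 0.57 ± 0.16 and 0.47 ± 0.13, where 16.6% of probe sets passed. AT5MAT, at 0.41 ± 0.18, did not pass at 24 h. Against 1 h the median of the 9 genes at 24 h was 0.67, against -0.02 over all probe sets. Replicate 2 at 24 h was the higher array for 8 of the 9 genes, as for AT4G14090 with 28.7 and 110 and AT1G06000 with 144 and 301. Without it the changes from 0.5 h to 24 h were 0.53 for CHIL, 0.96 for UGT78D1, 0.72 for AT1G06000 and 0.72 for AT4G14090. With all arrays they were 0.87, 1.19, 1.21 and 1.47.

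In roots 5 of the 9 rose at 12 h, where 5.1% of all probe sets were called higher, and none fell, with a median of 0.97 against 0.01 over all probe sets. Besides DFR and UF3GT these were UGT78D2 (1.48 ± 0.13, adjusted p = 7.37e-07, limma), CHIL (1.47 ± 0.16) and AT4G14090 (1.32 ± 0.34), the last lost in 3 of the 4 fits with 1 array left out. CHIL went from 131 and 128 at 0.5 h to 361 and 415 at 12 h, and stood at 84.9 and 83.7 at 24 h. From 12 to 24 h CHIL and UGT78D2 fell, by 2.01 and by 1.02 on the log2 scale. At 24 h UGT78D2 was still higher than at 0.5 h (0.46 ± 0.13) and CHIL was lower (-0.54 ± 0.16), calls that were both lost with any of the 4 arrays left out. UGT78D1 and AT1G06000 did not pass in roots at 12 h (0.07 ± 0.19 and 0.34 ± 0.23). Without replicate 2 at 0.5 h the root change of AT4G14090 at 12 h was 1.22, and without replicate 1 at 12 h it was 0.998. Those of CHIL and UGT78D2 stayed at 1.37 or more with any 1 array left out.

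Both arrays at 12 h lay above all arrays of 0.5 to 6 h for 6 of the 9 genes in shoots, where 9.2% of all probe sets did, and for 7 of the 9 in roots, where 6.7% did. In roots these 7 were also above both arrays of 24 h, as 2.66% of all probe sets were. They include AT1G06000 and AT5MAT, whose change over the root time course did not pass (limma F test, adjusted p = 0.335 and 0.351). In shoots none of the 9 had both arrays at 12 h above all other arrays, as 6.13% of probe sets had, and in roots none had both arrays at 24 h above those of 0.5 to 6 h, as 8.93% had. The shared probe set of AT1G03940 and AT1G03495 rose at 12 h by 1.47 ± 0.24 in shoots and by 1.31 ± 0.24 in roots, and fell between 12 and 24 h in roots (-1.14 ± 0.24, adjusted p = 0.0167).

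**Figure D4:**
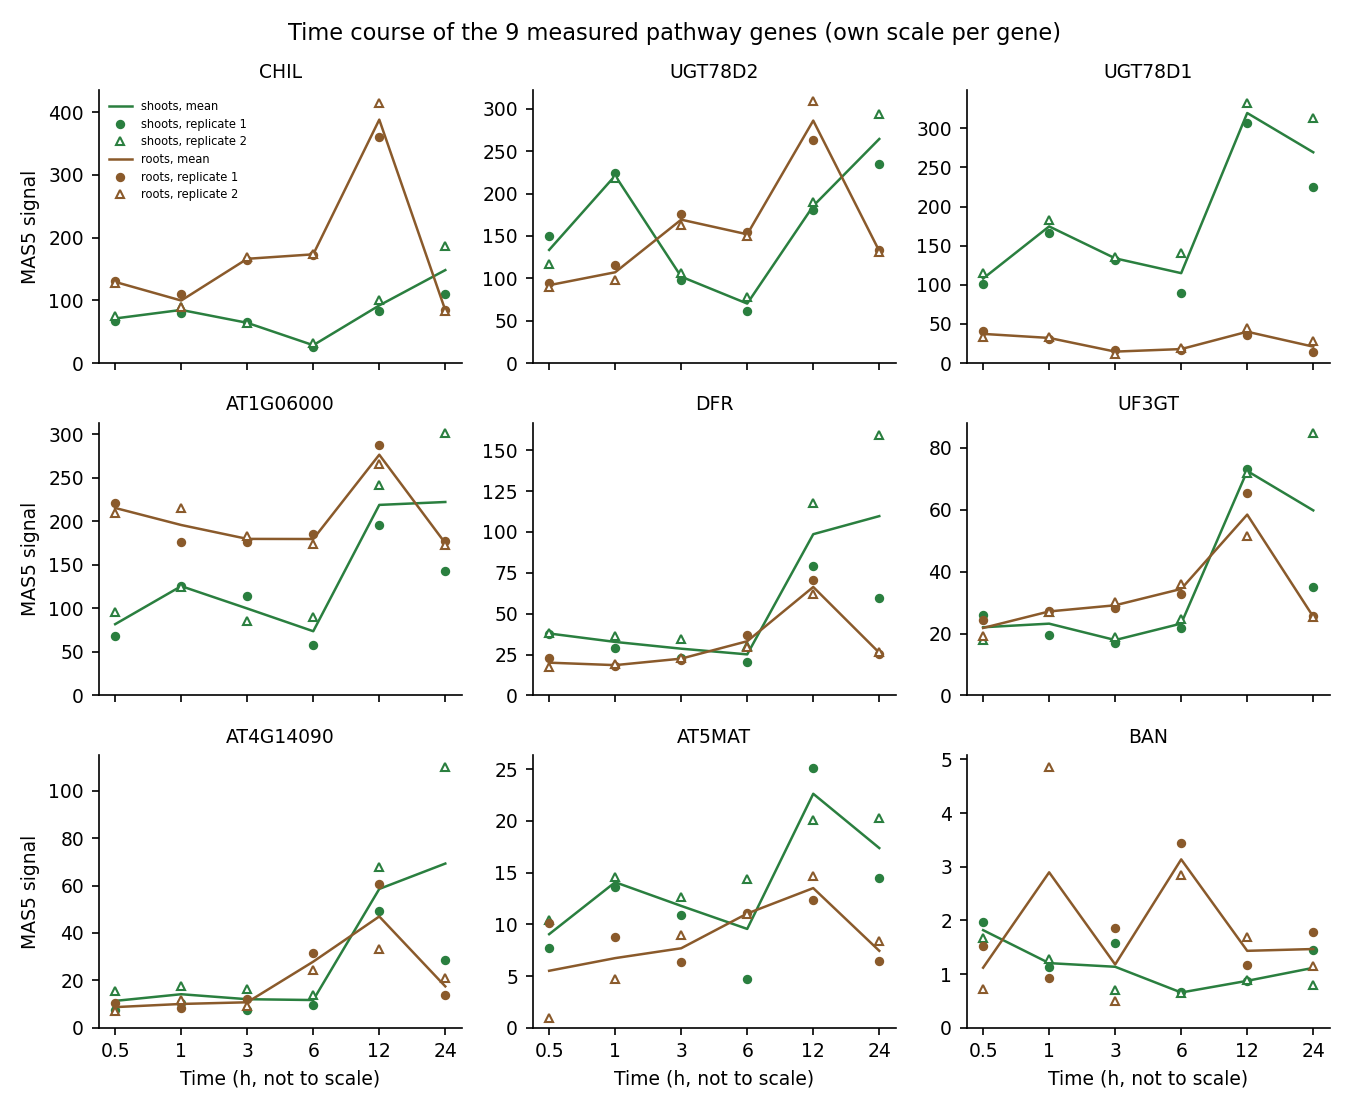
Linear MAS5 signals of the 9 measured pathway genes against time, each on its own scale, with shoots in green, roots in brown, replicate 1 as circles and replicate 2 as open triangles. Root signals of CHIL, UGT78D2, AT1G06000, DFR, UF3GT, AT4G14090 and AT5MAT are highest at 12 h, and BAN is at most at 4.86. For AT1G06000 and AT5MAT the change over the root time course did not pass.

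**Figure D5:**
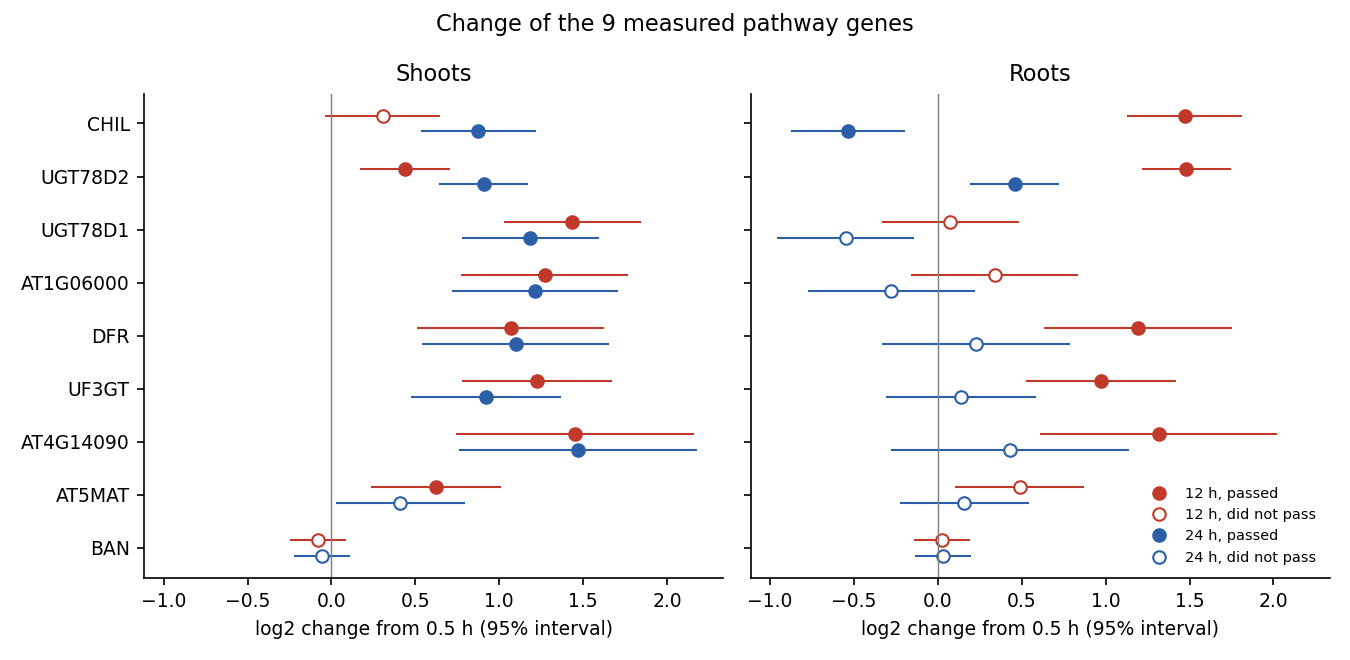
Change from 0.5 h to 12 h (red) and 24 h (blue) of the 9 genes on the log2(signal + 16) scale, with 95% intervals of limma, filled where the adjusted p was below 0.05. In shoots most genes lie right of 0 at both times. In roots at 24 h only UGT78D2 was called higher and only CHIL lower, where 13.1% of all probe sets passed either way. DFR and UF3GT also lie right of 0 there, at 0.23 and 0.14, without passing.

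Likeness of pattern was measured by Pearson's r of log2 signals over the 12 arrays of an organ, as a description in which the arrays of 12 and 24 h weigh most and which was not tested. By this measure UF3GT had rank 6 in likeness to DFR among 22745 probe sets in shoots and rank 8 in roots, and DFR had rank 10 in likeness to UF3GT in shoots and rank 1 in roots. The r between them was 0.94 in shoots and 0.94 in roots. Among named genes with a mean signal of at least 50 in shoots, those most like DFR were ATERDJ3B, a chaperone of the endoplasmic reticulum (0.97), AT5G17010 (0.92), AT2G25625 (0.92), the glycosyl hydrolase gene GH9B8 (0.92) and AT4G32920 (0.91). Those most like UF3GT in shoots were AT1G12400, AT2G20820, AT5G41460, the cytochrome P450 gene CYP71B6 and AT4G01700, all at 0.93, so that the shoot lists of the 2 genes shared no member.

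In roots LPR1, a ferroxidase of the root response to low phosphate, and AT2G05920 led both lists, with r of 0.96 and 0.95 to DFR and 0.94 and 0.92 to UF3GT. LPR1 had a mean signal of 161 at 12 h and 70.4 at 24 h. The other genes were AT3G27150, AT1G61350 and AT1G04990 for DFR (all 0.93) and AT2G25730 (0.91), UGT78D2 (0.89) and AT2G23910 (0.89) for UF3GT. With no minimum signal, AT4G14090 was the first of all named genes in likeness to DFR and the second to UF3GT in shoots. In roots it was the fourth to DFR and not among the first 5 to UF3GT. First in the other lists were AT2G39650 for UF3GT in shoots, AT2G22590 for DFR in roots and LPR1 for UF3GT in roots.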

How the data were processed

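Per the submitters' processing notes the authors made the deposited signal intensities with MAS5. The version and settings are not given in the sources used here. Each array had a mean of 100 after the lowest and highest 2% of probe sets were set aside. The 64 control probe sets were left out. The model was limma's (version 3.58.1, under R 4.3.3) on log2(signal + 16), holding 12 group means, with variances moderated along the mean level (residual degrees of freedom 12, prior 4.91) and Benjamini-Hochberg adjustment over 22746 probe sets. Untreated plants and detection calls were not used here. With arrays, their number limits precision.

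Probe sets were named from the platform annotation, with symbols updated through the TAIR10.1 gene table. A single gene was given for 13513 probe sets and several for 503, while 8730 had no entry and are unnamed here. The members, the pathway list and the tests were chosen with earlier results of these data known. The genes named are DFR, UF3GT, every measured gene of the list, the 5 genes most alike per gene and organ, and the organ markers. Correlations used exact permutation below 10 values and 100000 resamples otherwise. The script was tested on simulated data. Alternatives were pseudocounts of 1 and 64, other normalizations, leaving out dim probe sets (30% or 50%), moderation without a trend, each organ alone, a replicate block, other baselines and each array left out. Python 3.11.15 with pandas 2.3.3, scipy 1.17.1, numpy 2.4.6 and matplotlib 3.10.9 served for tables and plots.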

Additional observations from a re-analysis of the deposited data

Results flagged for a closer look

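No change of DFR or UF3GT at 12 or 24 h differed between organs past the threshold. Among the other measured pathway genes, the test of the difference itself, roots minus shoots in the change from 0.5 h, passed 6 times at 12 and 24 h (limma, 2 arrays a group). At 12 h, where 15.6% of probe sets passed, the root change exceeded the shoot change for CHIL by 1.17 ± 0.23 (adjusted p = 0.00184) and for UGT78D2 by 1.04 ± 0.18 (adjusted p = 0.000535), and was smaller for UGT78D1, at -1.36 ± 0.27 (adjusted p = 0.00214). At 24 h, where 9.39% of probe sets passed, the root change was smaller for CHIL (-1.41 ± 0.23), UGT78D1 (-1.74 ± 0.27) and AT1G06000 (-1.49 ± 0.33), with adjusted p of 0.00104, 0.000794 and 0.0091. The 6 calls held with any 1 array left out. CHIL thus differed between organs in opposite directions at 12 and 24 h. The same test passed at 6 h, where 12% of probe sets passed, for CHIL (1.35 ± 0.23, adjusted p = 0.000779) and UGT78D2 (1.43 ± 0.18, adjusted p = 4.1e-05). At 3 h it passed for UGT78D1 (-1.07 ± 0.27, adjusted p = 0.0219) and UGT78D2 (1.11 ± 0.18, adjusted p = 0.000861). The share of all probe sets at 3 h is not given here. These calls at 3 and 6 h were not recomputed with arrays left out.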

How the results depend on the processing

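Of the results recomputed under all alternatives, 2332 values kept direction and call, 49 lost a call, 23 gained one, 22 changed sign and 8 counts moved by over 1.5 times. The counts that moved are those of list genes called. Many of these fits leave out an array of a group outside the comparison, which cannot move its estimate or sign, only its p-value. The number of values kept therefore overstates how stable the results are. Where a change is given below, the cause was not tested. The DFR rise in shoots at 24 h lost its call with shoots fitted alone (1.10, adjusted p = 0.06). Without both shoot arrays nearest the roots that rise was 0.49, with UF3GT at 0.43. Against 12 h the values at 24 h were 0.030 and -0.31 in shoots and -0.97 and -0.84 in roots, and against 1 h UF3GT in roots was at -0.058. For UF3GT in shoots against roots, a pseudocount of 1 gave -0.012, quantile normalization 0.22, centring 0.23 and removal of both arrays -0.063. The DFR difference between organs at 12 h was -0.031 at a pseudocount of 64 and -0.12 without both arrays. Without them the changes from 12 to 24 h in shoots were -0.82 for DFR and -0.79 for UF3GT, against 0.030 and -0.31 with all arrays. The root r of DFR with UF3GT was 0.39 without the 2 farthest arrays, 0.62 after quantile normalization and 0.60 after centring, and that of replicate differences 0.55.

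With single arrays left out, DFR ranged from 0.82 to 1.31 (shoots, 12 h), 0.49 to 1.70 (shoots, 24 h), 1.08 to 1.31 (roots, 12 h) and 0.11 to 0.34 (roots, 24 h), and UF3GT from 1.07 to 1.38, 0.43 to 1.41, 0.84 to 1.11 and 0.04 to 0.23. List genes called higher numbered 5 to 8, 4 to 7, 2 to 5 and 0 to 1. Shoots against roots gave 0.39 to 0.59 for DFR and -0.060 to 0.10 for UF3GT. The difference between organs ran from -0.12 to 0.37 (12 h) and -1.48 to -0.26 (24 h) for DFR, and from -0.40 to -0.10 and -1.28 to -0.29 for UF3GT. Small early changes turned sign: UF3GT in shoots at 1 h (-0.11 to 0.20) and 6 h (-0.10 to 0.20), DFR in roots at 1 h (-0.17 to 0.057) and 3 h (-0.014 to 0.21). From 12 to 24 h in shoots DFR ran from -0.58 to 0.64 and UF3GT from -0.80 to 0.19.

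The labels do not say what arrays with the same replicate number shared. Their deviations correlated from -0.19 to 0.20 within an organ, and whether they shared a batch was not tested. With the replicate as a block 70 of 71 results kept their call, and the DFR decline from 12 to 24 h in roots (-0.97) gained one (adjusted p = 0.0204).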

Other observations

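DFR was higher on replicate 2 than on replicate 1 at all 6 times in shoots and at 3 of 6 times in roots, and UF3GT at 4 of 6 in shoots and 2 of 6 in roots. In shoots the DFR gap was 0.02 at 0.5 h, 0.21 at 1 h, 0.37 at 3 h, 0.34 at 6 h, 0.49 at 12 h and 1.21 at 24 h on the log2 scale. Of the 9 measured pathway genes, 6 to 8 were higher on replicate 2 in shoots at each time, where 42.1% to 52.5% of all probe sets were. In roots the count ran from 0 at 0.5 h to 5 at 1, 3 and 12 h, where 48.2% to 54.7% of all probe sets were higher on replicate 2 over the 6 times.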
